A study of Rattus norvegicus with 6 samples.

Results

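Podocytes are the epithelial cells that cover the outside of the glomerular capillaries, and their interlocking foot processes are joined by the slit diaphragm, the last barrier that holds back plasma protein. The diaphragm is built around nephrin and is anchored through scaffold proteins to an actin cytoskeleton, while a charged glycoprotein coat covers the upper face of the foot processes. Loss of podocytes and of nephrin is a known feature of diabetic kidney disease. The genes described here are 8 podocyte genes: Nphs1, Magi2 and Plce1 of the slit diaphragm and its signalling, Podxl, Ptpro and Clic5 of the apical membrane, Synpo of the foot process cytoskeleton, and the transcription factor gene Wt1. They were chosen by name and found on the array through their RefSeq accessions, which gave 12 of 30367 probes and 8 of the 18016 genes or unnamed transcripts tested.

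The 6 samples are total RNA from kidneys of rats aged 21 weeks, 3 described as diabetic and 3 as treated with Bailing Capsule, a fermented Cordyceps preparation. Whether the treated rats also had diabetes is not stated, nor are the cause of diabetes, the dose, the sex or the strain, and healthy animals were not analysed here. The labels number the samples of a group as replicates without saying that each is a separate animal, so a p-value here covers only sample-to-sample spread, part of which could be technical. The comparison asks which genes differ in the kidney after the preparation.

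Arrays were assigned to slides by the scan identifier in the scanner files, on the assumption that arrays of the same scan shared a slide. The 3 Bailing Capsule arrays and the array of diabetic replicate 1 were on slide 1, and diabetic replicates 2 and 3 were on slide 2. Because slide 2 held no Bailing Capsule array, a fit with slide as a block gives the log2 difference found within slide 1, where 3 arrays stand against 1. In bulk tissue fewer podocytes and less RNA per podocyte cannot be told apart, and the share of cortex in each piece of kidney is not known.

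Podocyte RNA was readily measured. The podocyte's defining genes Nphs1, Podxl, Synpo, Wt1 and Ptpro were well above background on all 6 arrays, as were 15 of 15 proximal tubule genes. Values below are log2 signal relative to the 75th percentile of the same array, and a difference is always Bailing Capsule minus diabetic. A gene was represented by its brightest probe. Levels of different probes are not compared, except where they are added in sums over gene lists.

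None of the 8 genes passed the test between the groups (limma, adjusted p under 0.05). The count was 0 of 8, against 0.294% of all genes tested (53 of 18016, 0.122% higher and 0.172% lower), and at an unadjusted p under 0.05 it was also 0 of 8, against 7.5%. In all 8 genes the values of the groups overlapped, where 11.8% of all genes had groups that did not (4.57% higher and 7.24% lower). Differences were positive for 4 genes and negative for 4, with a median of -0.01 beside -0.09 over all genes. The 53 calls were 22 higher and 31 lower. The split was 25 higher and 21 lower in the deposited log2 values, 28 and 11 with slide as a block, and 58 and 135 without diabetic replicate 1. The total was 193, 17 and 18 without diabetic replicates 1, 2 and 3, and 136, 26 and 29 without Bailing Capsule replicates 1, 2 and 3. None of these fits called any of the 8 genes.

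**Figure D1:**
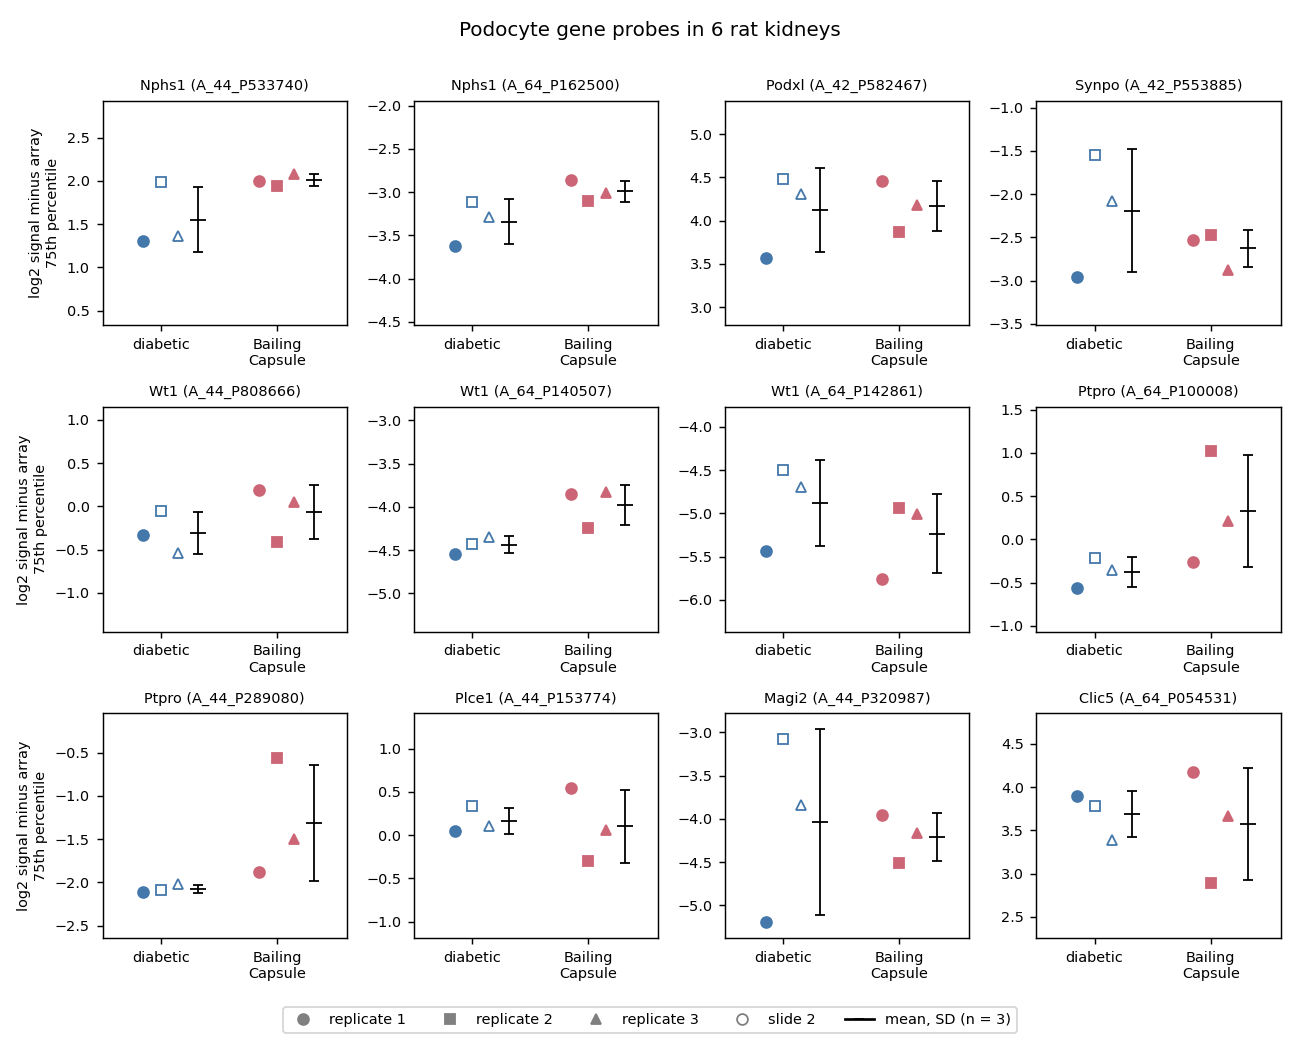
Log2 signal relative to the array's 75th percentile for each of the 12 probes, with diabetic kidneys in blue and Bailing Capsule kidneys in red. The marker shape gives the replicate, open markers lay on slide 2, and bars show mean and SD of 3 arrays. Each panel has its own scale, and diabetic replicate 1 is the lowest point in 8 of the 12 panels, among them Podxl, Synpo and Magi2.

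The slit diaphragm genes are taken first. Nphs1 encodes nephrin, the adhesion protein whose molecules meet across the slit. Its brighter probe (A_44_P533740) read 1.31, 1.98 and 1.36 in diabetic replicates 1 to 3 and 2.0, 1.95 and 2.08 in Bailing Capsule replicates 1 to 3. The 3 treated kidneys lay close together at the upper end, and diabetic replicate 2 lay among them. The means were 1.55 ± 0.38 and 2.01 ± 0.07 (SD, n = 3), a difference of 0.46 (SE 0.27; limma, adjusted p = 0.812). The 95% interval of the fold ran from 0.909 to 2.07.

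The dimmer Nphs1 probe (A_64_P162500) also had diabetic replicate 1 lowest. It read -3.62, -3.11 and -3.29 in diabetic kidneys and -2.86, -3.10 and -3.01 in Bailing Capsule kidneys, with a difference of 0.35 (SE 0.25; limma, adjusted p = 0.889 among single probes). On this probe the groups did not overlap, by a margin in the second decimal between diabetic replicate 2 and Bailing Capsule replicate 2. The gap between both probes changed by 0.11 between the groups (exact permutation test, two-sided, p = 0.6, Benjamini-Hochberg p = 0.7 over 5 probe pairs of the 8 genes, where 0.1 is the smallest p that 3 against 3 arrays allow). With slide as a block Nphs1 had 0.70 (SE 0.39; limma, adjusted p = 0.9997). In the deposited log2 values the difference was 0.59 (limma, unadjusted p = 0.0179, adjusted p = 0.387), and its sign was positive in every alternative run. Of all 18111 genes tested in the deposited values, 1686 had an unadjusted p under 0.05. Other probe filters and a replicate block left the main difference unchanged at 0.46, so they are no separate checks of its sign.

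Magi2 encodes a multi-domain scaffold that binds nephrin beneath the slit. Its single probe had signals of 7.46 to 26.9 intensity units. It read -5.20, -3.07 and -3.84 in diabetic kidneys and -3.96, -4.51 and -4.16 in Bailing Capsule kidneys. The diabetic kidneys held both the highest and the lowest value, so the treated ones lay inside their range. The array of diabetic replicate 1 was 1.74 below the mean of the other diabetic arrays, close to the lowest signal that counted as well above background there (-5.70).

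The sign of the Magi2 difference turned with the arrays and the fit used. The difference was -0.17 (SE 0.46; limma, adjusted p = 0.982), it was -0.75 without diabetic replicate 1, and it was 0.99 with slide as a block (SE 0.42; unadjusted p = 0.0387, adjusted p = 0.943). The share of all genes past an unadjusted p under 0.05 in the blocked fit was 4.93%.

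Plce1 encodes phospholipase C epsilon, a signalling enzyme needed for podocyte maturation. It read 0.05, 0.33 and 0.11 in diabetic kidneys and 0.54, -0.30 and 0.06 in Bailing Capsule kidneys. The treated kidneys spread more widely and enclosed all diabetic values. The difference was -0.06 (SE 0.28; limma, adjusted p = 0.99), and it was 0.05 with slide as a block. Its interval, as a fold, ran from 0.621 to 1.48.

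Podxl, Ptpro and Clic5 act at the apical membrane. Podxl encodes podocalyxin, the negatively charged glycoprotein that keeps neighbouring foot processes apart, and it is also made by endothelium. Its probe was printed 10 times on each array, and the SD between its spots was 0.03 to 0.11 in log2 units, against an SD between diabetic kidneys of 0.48. It read 3.57, 4.48 and 4.31 in diabetic kidneys and 4.45, 3.87 and 4.18 in Bailing Capsule kidneys. Again the diabetic kidneys held both ends of the range, with diabetic replicate 1 lowest.

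The Podxl difference was 0.05 (SE 0.31; limma, adjusted p = 0.993), with a fold interval of 0.643 to 1.66. It was 0.60 with slide as a block (SE 0.39; limma, adjusted p = 0.9997) and -0.23 without diabetic replicate 1. The spots of an array thus differed less than the arrays did.

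Ptpro, which encodes the receptor tyrosine phosphatase GLEPP1 of the foot process surface, had the largest difference of the 8 in size. Its brighter probe (A_64_P100008) read -0.56, -0.21 and -0.35 in diabetic kidneys and -0.26, 1.03 and 0.22 in Bailing Capsule kidneys. The treated kidneys covered a wide range, from Bailing Capsule replicate 1 within the diabetic values to Bailing Capsule replicate 2 well above them. The difference was 0.70 (SE 0.33; limma, unadjusted p = 0.0607, adjusted p = 0.7), or 1.63-fold with an interval of 0.974 to 2.73. It was 0.36 without Bailing Capsule replicate 2, 1.0 without Bailing Capsule replicate 1 and 0.89 with slide as a block (limma, adjusted p = 0.9997).

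The second Ptpro probe (A_44_P289080) followed the first closely. It read -2.12, -2.09 and -2.02 in diabetic kidneys and -1.88, -0.57 and -1.49 in Bailing Capsule kidneys. All 3 treated kidneys lay above all 3 diabetic ones. The treated kidneys were in the same order as on the first probe, but diabetic replicates 2 and 3 were not. The difference was 0.76 (SE 0.33; limma, unadjusted p = 0.0455, adjusted p = 0.628 among single probes, of which 7.7% had an unadjusted p under 0.05). The gap between the probes was 1.70 ± 0.16 in diabetic and 1.64 ± 0.06 in Bailing Capsule kidneys (SD, n = 3), so both probes gave the high value of Bailing Capsule replicate 2.

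Clic5 encodes an intracellular chloride channel protein that sits with ezrin beneath the apical membrane and is also found in endothelium. It read 3.90, 3.78 and 3.38 in diabetic kidneys and 4.17, 2.89 and 3.66 in Bailing Capsule kidneys. Bailing Capsule replicate 2, the highest kidney for Ptpro, was the lowest for Clic5. The difference was -0.11 (SE 0.34; limma, adjusted p = 0.985), and its sign turned with normexp background correction and quantile normalization together (0.09) and in the deposited log2 values (0.03). With slide as a block it was -0.32, the only negative blocked value among the 8.

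Synpo encodes synaptopodin, an actin-bundling partner in the foot process, and stands for the cytoskeleton. It read -2.95, -1.55 and -2.08 in diabetic kidneys and -2.53, -2.47 and -2.88 in Bailing Capsule kidneys. The treated kidneys were lower than the diabetic kidneys of slide 2 and higher than diabetic replicate 1 of slide 1. The difference was -0.43 (SE 0.35; limma, adjusted p = 0.921). It was -0.81 without diabetic replicate 1 (limma, unadjusted p = 0.023, adjusted p = 0.302), -0.11 without diabetic replicate 2, and 0.33 with slide as a block (SE 0.39; limma, adjusted p = 0.9997). Without diabetic replicate 1, 2140 of all 18016 genes had an unadjusted p under 0.05.

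Wt1 encodes the zinc finger factor that maintains the podocyte programme and is known to act on Nphs1 and Podxl. Of its 3 probes, the brighter ones had positive differences. The dimmest, which passed the filter through the diabetic arrays alone, had a negative one. The brightest (A_44_P808666) read -0.33, -0.05 and -0.54 in diabetic kidneys and 0.18, -0.41 and 0.04 in Bailing Capsule kidneys, with overlapping groups and a difference of 0.25 (SE 0.27; limma, adjusted p = 0.966). It was 0.27 with slide as a block.

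The second Wt1 probe (A_64_P140507) read -4.54, -4.42 and -4.35 in diabetic kidneys and -3.85, -4.24 and -3.83 in Bailing Capsule kidneys. Here every treated kidney lay above every diabetic one, and the difference was 0.46 (SE 0.25; limma, adjusted p = 0.753 among single probes). The dimmest Wt1 probe (A_64_P142861) read -5.44, -4.49 and -4.69 against -5.76, -4.94 and -5.01, and its difference was negative, -0.36 (SE 0.33; limma, adjusted p = 0.945). That probe was not well above background in Bailing Capsule replicate 1, so the difference includes an array with only an upper bound. It was kept only through the 3 diabetic arrays, the group where it read higher. Its negative sign is therefore not read as a disagreement between probes, and the sign turned with slide as a block (0.20).

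In the test of single probes, 0 of 12 podocyte probes were called against 0.309% of 20083 probes. Groups did not overlap on 3 of the 12, all higher in Bailing Capsule kidneys, against 5.05% of all probes that were higher without overlap and 7.22% that were lower. Those 3 were the dimmer probe of Nphs1, the dimmer probe of Ptpro and the second probe of Wt1, each from a gene whose brightest probe did overlap. Their size depended on the processing. With normexp background correction and quantile normalization together, the difference fell from 0.35 to 0.11 for this Nphs1 probe. It fell from 0.46 to 0.11 for the Wt1 probe and from 0.76 to 0.56 for the Ptpro probe. Quantile normalization alone gave 0.37, 0.52 and 0.74 for these Nphs1, Wt1 and Ptpro probes. Which step changed the values was not tested.

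Promoters of 3 genes are shown to set the sequence context beside the values: Ptpro with the largest difference, Nphs1 with the next, and Podxl, known as a target of WT1. Each runs from 250 bases before to 50 after the annotated start on the gene's own strand, from RefSeq on build GRCr8. Capitals mark matches to GNGNGGGNG, a loose form of the site read by WT1 and related zinc finger factors, searched on both strands, with matches allowed to overlap.
Ptpro, chr4:171895261-171895560, + strand: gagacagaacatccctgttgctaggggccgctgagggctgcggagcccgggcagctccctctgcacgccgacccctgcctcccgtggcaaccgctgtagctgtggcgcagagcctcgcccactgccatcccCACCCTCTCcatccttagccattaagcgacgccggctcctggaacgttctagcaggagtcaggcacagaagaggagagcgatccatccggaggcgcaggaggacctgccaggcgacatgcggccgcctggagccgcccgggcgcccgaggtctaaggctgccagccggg
Nphs1, chr1:94848011-94848310, + strand: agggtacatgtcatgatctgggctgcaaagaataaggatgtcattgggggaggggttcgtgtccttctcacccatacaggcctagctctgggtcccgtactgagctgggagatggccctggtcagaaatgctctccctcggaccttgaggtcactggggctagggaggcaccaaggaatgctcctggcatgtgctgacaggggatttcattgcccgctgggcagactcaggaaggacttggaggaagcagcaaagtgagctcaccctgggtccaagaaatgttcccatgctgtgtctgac
Podxl, chr4:61149082-61149381, - strand: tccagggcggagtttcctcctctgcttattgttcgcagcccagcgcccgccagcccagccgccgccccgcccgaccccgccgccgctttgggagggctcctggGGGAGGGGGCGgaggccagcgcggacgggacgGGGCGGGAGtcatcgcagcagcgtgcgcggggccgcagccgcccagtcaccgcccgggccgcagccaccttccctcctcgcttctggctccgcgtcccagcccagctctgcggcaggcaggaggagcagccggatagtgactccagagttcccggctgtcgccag
Ptpro held 1 match, on the other strand, Podxl held 3, on the printed strand, and Nphs1 held none in this window. The promoter table held 7 of the 8 genes, and a match was found in 3 (the other was Magi2), where 36.7% of all 33469 promoters did. A match is a run of letters and shows no binding.

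**Figure D2:**
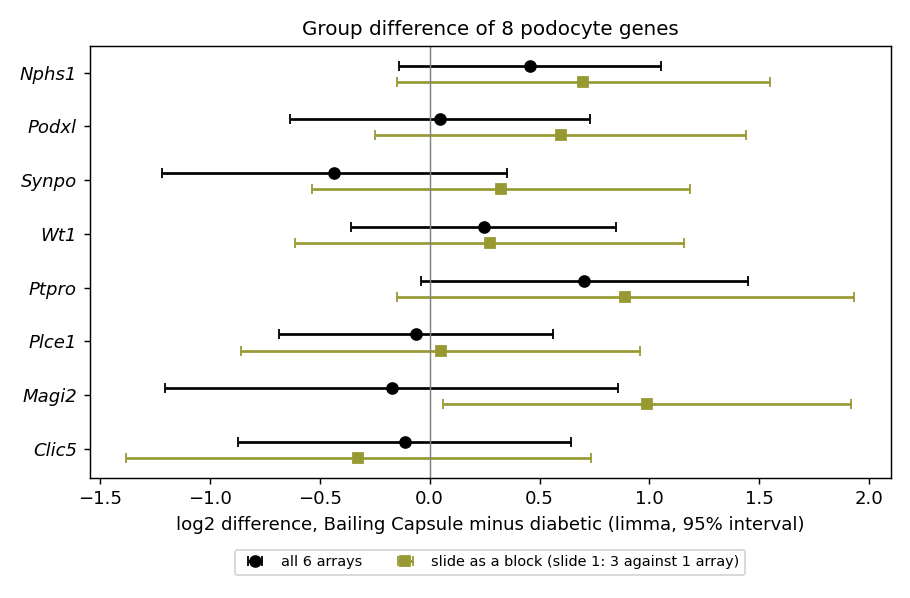
Log2 difference between Bailing Capsule and diabetic kidneys for the 8 genes from limma, with 95% intervals. Black points use all 6 arrays, and olive squares use slide as a block, which rests on 1 diabetic array. Every black interval spans 0, and of the squares the one for Magi2 alone, at 0.99, has an interval clear of 0 before adjustment.

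Slide as a block moved most of these genes upward. With it 7 of 8 differences were positive, with a median of 0.46 in place of -0.01, and 0 of 8 were called. Over all genes the blocked share of positive values was 59.3%, in place of 37.7%, and the median was 0.09. The blocked values all lean on the array of diabetic replicate 1, which read lower than the mean of the other diabetic arrays for 7 of the 8 genes. Over all genes 71.2% were lower there, with a median of -0.23 beside -0.32 for the 8. Of the further podocyte genes described below, 59.6% were lower there, with a median of -0.14.

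**Figure D3:**
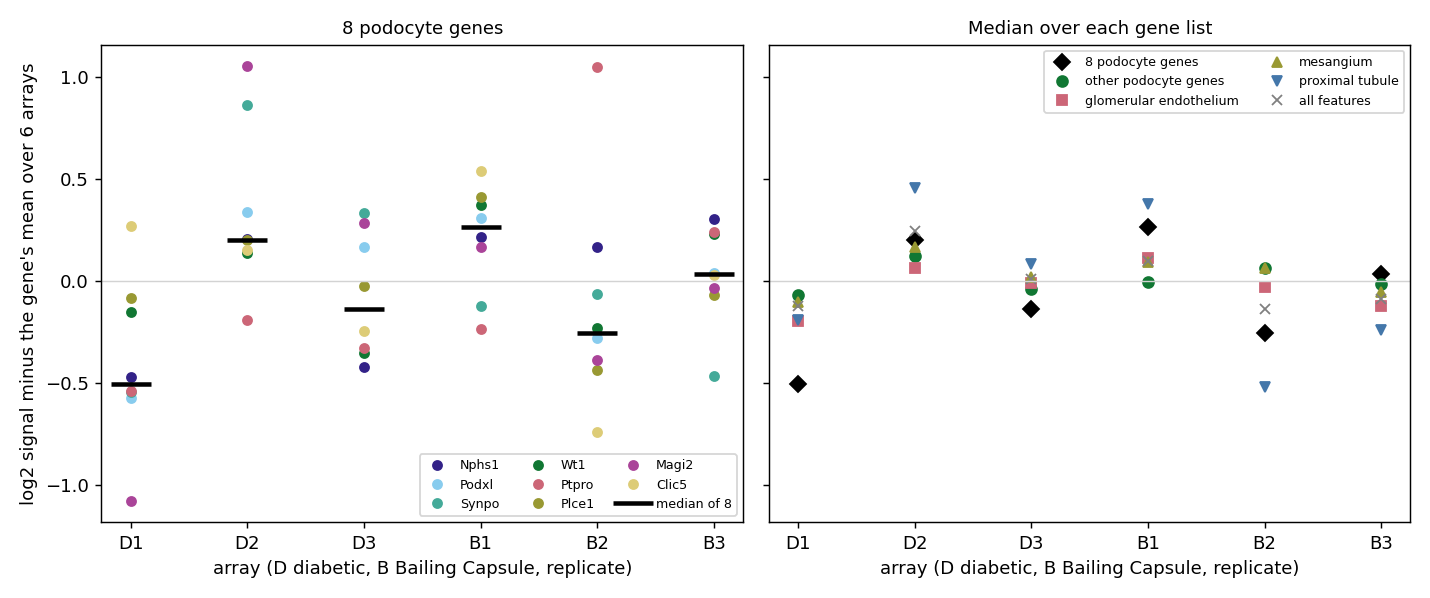
Left, log2 signal of each of the 8 genes minus its own mean over 6 arrays, with the median of the 8 as a black bar. Right, the same median for the 8 genes, the further podocyte genes, glomerular endothelium, mesangium, proximal tubule and all genes, whose 6 plotted points for diabetic replicate 2 (D2) lie above 0. The 8 genes are lowest on diabetic replicate 1 (D1), at -0.50.

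After each gene was centred on its own mean, the median of the 8 was -0.50, 0.20 and -0.14 in diabetic replicates 1 to 3 and 0.26, -0.25 and 0.03 in Bailing Capsule replicates 1 to 3. Of the 8 genes 5 were lowest on diabetic replicate 1, and 3 each were highest on diabetic replicate 2 and Bailing Capsule replicate 1. Over all genes 24.4% were lowest on diabetic replicate 1, and 40.6% and 21.7% were highest on those other arrays. Of 56 further podocyte genes with values on all arrays, 19.6% were lowest on diabetic replicate 1. The SD within groups ran from 0.27 for Nphs1 to 0.79 for Magi2, and its median over all genes was 0.35.

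The level of the 8 genes summed on the linear scale was 31.9 to 43.6 in diabetic and 29.7 to 47.5 in Bailing Capsule kidneys. It was highest in Bailing Capsule replicate 1 and diabetic replicate 2. Such a sum is weighted towards the brightest probes. Most of it came from Podxl (log2 values of 3.57 to 4.48) and Clic5 (2.89 to 4.17), both also found in endothelium. Nphs1 came next (1.31 to 2.08), so the sum says little about the other genes. The sum over all genes was also highest in Bailing Capsule replicate 1 and diabetic replicate 2. So was that of 15 proximal tubule genes, which ran from 799.8 to 1284 in diabetic and from 646 to 1214 in Bailing Capsule kidneys. The 11 tested genes of glomerular endothelium summed to 55.1 to 78.1 and 48.7 to 72.7, and the 11 of mesangium to 13.5 to 14.97 and 13.9 to 15.6. The 10 of parietal epithelium summed to 37.8 to 226 and 41.9 to 77.7. The part of tissue makeup or of array level in the podocyte values was not tested.

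The median differences of these lists were -0.06 for glomerular endothelium, -0.01 for mesangium, -0.14 for parietal epithelium and -0.28 for proximal tubule, with 0 genes called in any of them by limma and 0, 1, 0 and 1 at an unadjusted p under 0.05. The medians were 0.30 for loop of Henle and distal tubule (9 tested, 0 called, 1 at an unadjusted p under 0.05) and 0.15 for collecting duct (12 tested, 1 called, 4 unadjusted). The called gene was Slc26a4, the chloride and bicarbonate exchanger pendrin, at 1.68 (SE 0.28; limma, adjusted p = 0.0464). With slide as a block 0 of the 12 collecting duct genes were called.

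The wider podocyte gene set was also read, and some of its genes are made by other kidney cells too. Of 85 further genes in 5 lists by role, 66 were on the array under a matched accession and 58 were tested. By limma 0 of 58 were called and 2 had an unadjusted p under 0.05, or 3.45% against 7.5% of all genes. Their median difference was -0.02, with 26 positive and 32 negative, and with slide as a block it was 0.06. Groups did not overlap for 7 of the 58, against 11.8% of all genes (4.57% higher and 7.24% lower). Of these, 3 were higher (Trpc6, Nherf2 and Pax2) and 4 were lower, Pdlim2 among them.

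Slit diaphragm and scaffold genes (15 tested) had a median of -0.01, with 7 positive. The lowest p-values were those of Trpc6, a cation channel at the slit, and Prkcz, a polarity kinase. Trpc6 read -3.26, -3.62 and -3.39 in diabetic and -2.75, -2.92 and -3.0 in Bailing Capsule kidneys. Every treated kidney was above every diabetic one, with a difference of 0.54 (SE 0.24; limma, adjusted p = 0.674). It was 0.15 with normexp background correction and quantile normalization together, and 0.37 with slide as a block. Prkcz had 0.50 (SE 0.34; limma, adjusted p = 0.887), with overlapping groups, and 0.16 without Bailing Capsule replicate 2. With normexp and quantile normalization together Prkcz had 0.11.

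Actin and adhesion genes (18 tested) had a median of -0.00099, with 9 positive. Pdlim2, which encodes a PDZ and LIM domain protein that binds alpha-actinin, had the largest difference of all 58. It read -0.50, 0.21 and -0.47 in diabetic and -1.72, -1.57 and -1.66 in Bailing Capsule kidneys. The treated kidneys lay close together and below every diabetic kidney. The difference was -1.40 (SE 0.27; limma, unadjusted p = 0.000434, adjusted p = 0.0889), with a fold interval of 0.249 to 0.579.

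Pdlim2 did not pass the threshold over all genes. It passed without diabetic replicate 1 (-1.52, adjusted p = 0.0452), and with slide as a block it had -1.15 (limma, adjusted p = 0.644). Arhgdia, which encodes a GDP dissociation inhibitor of small GTPases, had -0.65 (SE 0.34; limma, adjusted p = 0.748), with overlapping groups.

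Apical and membrane genes (9 tested) had a median of -0.10, with 4 positive. Pdpn, which encodes podoplanin, read 1.98, 3.11 and 2.5 in diabetic and 2.01, 1.53 and 1.56 in Bailing Capsule kidneys. Diabetic replicate 1 lay level with the highest treated kidney, and the difference was -0.83 (SE 0.32; limma, unadjusted p = 0.0266, adjusted p = 0.539). It was -0.29 with slide as a block. Podoplanin is also made by lymphatic endothelium. Nherf2, a linker between podocalyxin and ezrin, had 0.56 (SE 0.26; limma, adjusted p = 0.693), with every treated kidney above every diabetic one. It had 0.17 with normexp and quantile normalization together, and 0.67 with slide as a block.

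Transcription and cell cycle genes (6 tested) had a median of 0.13, with 4 positive. Pax2, a developmental factor that mature podocytes lack and parietal cells and collecting duct keep, had 0.43 (SE 0.23; limma, adjusted p = 0.777). With normexp and quantile normalization together Pax2 had 0.21, and with slide as a block 0.33. Foxc2, a forkhead factor of podocytes, had 0.27 (SE 0.28; limma, adjusted p = 0.961), and 0.08 without Bailing Capsule replicate 2. Basement membrane and secreted factor genes (10 tested) had a median of -0.04, with 2 positive. These were Col4a4, a collagen IV chain of the glomerular basement membrane, at 0.38 (SE 0.28; limma, adjusted p = 0.909), and the angiopoietin-like gene Angptl2 at 0.43 (SE 0.34; limma, adjusted p = 0.916), which had 1.14 with slide as a block. Without diabetic replicate 1, the array on which the blocked value leans, Col4a4 had 0.15 and Angptl2 0.08.

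**Figure D4:**
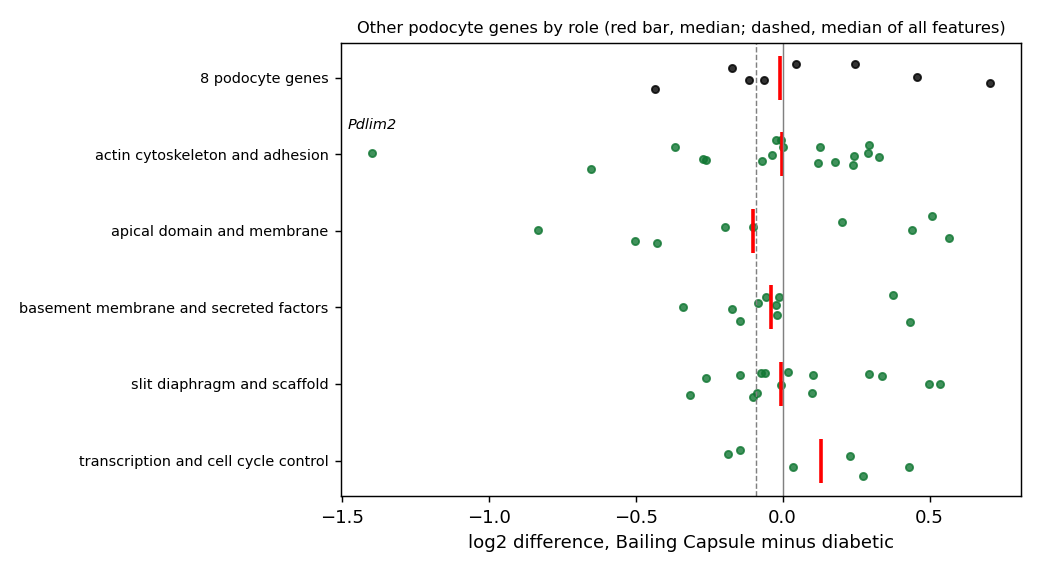
Log2 difference of each tested gene, Bailing Capsule minus diabetic, for the 8 podocyte genes in black and for 58 further podocyte genes in green, by role. Red bars are medians, the dashed line is the median over all genes (-0.09), and Pdlim2 at -1.40 lies farthest from 0 among them.

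The profile of the 8 genes over the arrays was compared with that of every other named gene that varied at least as much. The 5 closest of 6715, by root-mean-square difference to the median profile of the 8, were Carhsp1, Sp100, Mk1, Oat and Tuba1a, at 0.06 to 0.08 log2 units over 6 arrays. The closest of the further podocyte genes, named after its value was seen, was Cdh3, at rank 68 (0.13). Most of those named above lay much farther down. Col4a4 and Angptl2 ranked 437 and 791, and Trpc6, Nherf2, Foxc2, Pdpn, Arhgdia, Prkcz and Pdlim2 ranked from 2737 to 6358.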

How the data were processed

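Total kidney RNA was labelled with Cy3 and hybridised to Agilent one-colour rat arrays, per the labels' protocols. Per the file headers, each spot's deposited intensity is the processed signal of Feature Extraction 11.0.1.1, from which background had already been removed and which had not been scaled to the other arrays. The deposited table holds log2 values, as read from the data (column medians 5.05 to 5.06, correlation with the same array 0.983 to 0.994). It served as an alternative, and the authors' normalization of it is not given in the sources used here.

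Outlier spots (597 to 1091 of 42877 per array) were left out, spots of a probe were averaged, and the array's 75th percentile of log2 signal was subtracted. No spot was saturated, and 65.3% to 73.7% of probes per array were well above background (with 3 arrays a group setting the precision). A probe was kept if at least 50% of its spots were well above background on all 3 arrays of a group. A gene stood for its brightest kept probe. RefSeq accessions were matched to a GRCr8 gene table and named 18005 of 30367 probes. The files name build rn4, so no array coordinates are given. Probe sequences were not used here.

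The test, per gene and per probe, was that of limma 3.58.1 under R 4.3.3, with eBayes moderation and Benjamini-Hochberg adjustment over every feature, and the fit was tested on simulated data. Alternatives were normexp with an offset of 50 on median spot signals (the files used hold no mean spot signal) with quantile normalization, other scalings and filters, the mean of probes, slide and replicate blocks and leaving out arrays. Beside the 8 genes, named genes were the 2 with the lowest p in each further podocyte list, where none was called, and the 5 closest profiles. One further defining marker is not reported here. The members and lists were chosen with earlier results of these data known. One listed gene, Cd2bp2, is no podocyte gene and was kept as listed. Mature podocytes lack Pax2, and Pdpn is also made by lymphatic endothelium, so the list values do not stand for podocytes alone.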

Additional observations from a re-analysis of the deposited data

How the results depend on the processing

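No alternative called any of the 8 genes or their 12 probes, and the lowest adjusted p among the genes was 0.206, for Ptpro without Bailing Capsule replicate 1. Nphs1 (0.34 to 0.70), Ptpro (0.36 to 1.0) and Wt1 (0.12 to 0.42) kept a positive sign under all 16 alternatives. Not all of these were separate checks of the sign. The other filters and the replicate block left the differences of these genes unchanged, and within slide 1 they equalled the blocked ones. With slide as a block and within slide 1 the sign turned for Magi2 (0.99), Synpo (0.33), Plce1 (0.050) and the dimmest Wt1 probe (0.20; 0.0035 with normexp and quantile normalization), and for Clic5 it turned with normexp and quantile normalization (0.086) and in the deposited values (0.029). When 1 array was left out, Synpo ran from -0.81 to -0.11, Podxl ran from -0.23 to 0.23, Plce1 from -0.28 to 0.14, Magi2 from -0.75 to 0.31 and Clic5 from -0.41 to 0.23; the cause was not tested.

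The total of called genes (53) was 6 with no filter, 12 after normexp plus quantile scaling, 9 within slide 1 and 17 to 193 with 1 array left out. For single probes (62) it was 8, 14, 10 and 19 to 208, and 38 with probes well above background on all arrays. The count of further podocyte genes called was 0 to 1 with 1 array left out. As a replicate block, the replicate number gave 6 genes and 8 probes. Same-numbered samples deviated from their group means with correlations of -0.18, -0.14 and 0.02, so the numbers gave no sign of a pairing. Of the called genes 41.5% were higher, against 54.3% in the deposited values, 71.8% with slide as a block, 55.6% within slide 1, 16.7% with no filter, and 25.7% to 52.9% with 1 array left out. Pdlim2 was the further podocyte gene called without diabetic replicate 1.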
